A study of Mus musculus with 9 samples.

Results

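The transcripts described here encode the factors that take hold of a new RNA in the nucleus and carry it out: the cap-binding complex (Ncbp1, Ncbp2), the adaptors that sit on it (Srrt, Zc3h18, Phax), 3 subunits of the THO complex (Thoc1, Thoc2, Thoc5) and both subunits of the mRNA export receptor (Nxf1, Nxt1). They were picked by symbol, and all 10 were found among the 23235 gene symbols of the series. The libraries were made from day 21 mouse oocytes divided by micromanipulation into nucleus and cytoplasm, and each sample pooled 10 of either. The groups were MTR4-null nuclei (2 libraries), wild-type (WT) nuclei (3 libraries), MTR4-null cytoplasms (2 libraries) and WT cytoplasms (2 libraries). Total RNA freed of ribosomal RNA was sequenced, so transcripts without a poly(A) tail were read too. The sources used here do not give how the null allele was made, or in which cells.

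A capped RNA emerging from RNA polymerase II is bound within moments by the cap-binding complex, a dimer in which NCBP2 holds the cap and NCBP1 stabilises that grip and docks partners. ARS2, the product of Srrt, joins it, and from there a transcript can go either way. ZC3H18 links the cap to the NEXT complex, in which the helicase MTR4 feeds RNA to the nuclear exosome, while ALYREF and the THO complex (the core of TREX) lead to NXF1-NXT1 and through the pore. PHAX is the adaptor that takes capped spliceosomal snRNAs to the exporter CRM1. In human cells MTR4 and ALYREF have been described as rivals for the ARS2-bound cap. A growing oocyte stores large amounts of maternal mRNA, which must pass along this route.

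Each deposited column gives 1 value per group, called here the authors' FPKM (fragments scaled to transcript length and sequencing depth). FPKM is scaled to transcript length, so levels of different genes can be set side by side. No value per library was analysed here, so no test, SD or p-value is given, and the spread between libraries behind every difference below is unknown. Differences are MTR4-null minus WT, or nucleus minus cytoplasm, on log2(FPKM + 1), and "2-fold" means a log2 difference of at least 1 in size. All 10 transcripts were among the 14270 genes that reached 1 FPKM in at least 1 column. Over those genes the median genotype difference was 0.21 in the nucleus and -0.26 in the cytoplasm, so a transcript's own difference is to be read against these shifts. Of all genes counted as 2-fold apart, 66.1% were higher in the MTR4-null nucleus and 41.2% in the MTR4-null cytoplasm as deposited; after centring the columns on the genes that all 4 columns list at 1 FPKM or above (common-gene centring) these shares were 54.0% and 78.1%. The Mtr4 transcript, listed as Skiv2l2, stood at 2.91 FPKM in the MTR4-null nucleus against 16.2 FPKM in the WT nucleus, and at 2.51 FPKM in the MTR4-null cytoplasm against 21.6 FPKM in the WT cytoplasm. The 10 oocyte markers (zona pellucida genes, Gdf9, Bmp15 and others) summed to 9090.1, 6775, 5645 and 8233 FPKM in the MTR4-null nucleus, WT nucleus, MTR4-null cytoplasm and WT cytoplasm. The 10 granulosa cell markers summed to 52.2, 53.6, 40.9 and 51.7 FPKM in the same order, with Amh listed at 0 in the WT nucleus. Of the 9 granulosa markers kept, 3 passed 2-fold on the higher side and 1 on the lower side in the MTR4-null nucleus, where 23.9% and 12.3% of all genes kept did, and their part in the results was not tested. In pooled samples such as these, fewer granulosa cells and less RNA per granulosa cell cannot be told apart.

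**Figure D1:**
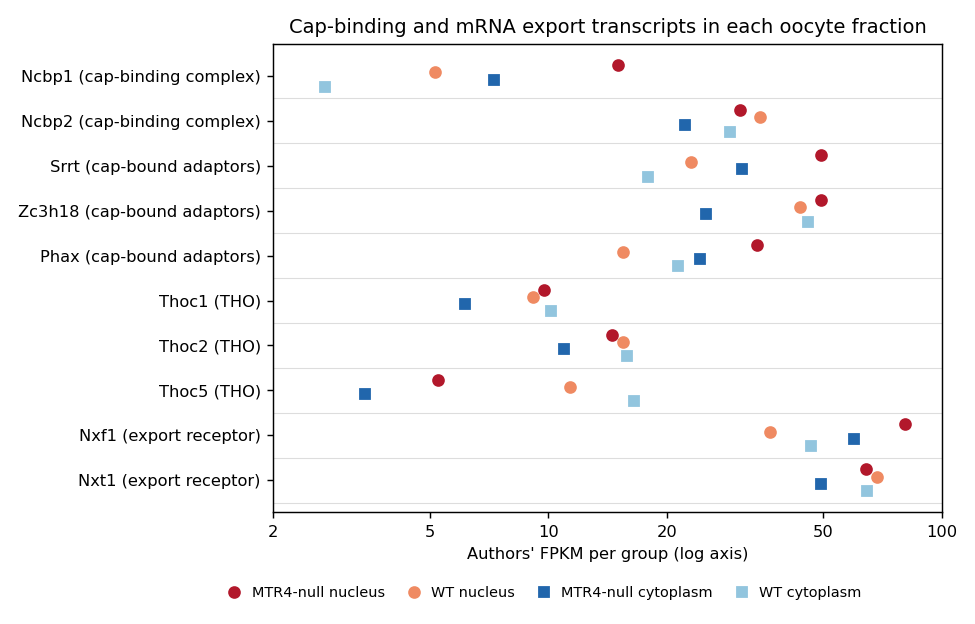
The authors' FPKM (log axis) of the 10 transcripts, 1 row each, in the MTR4-null nucleus, WT nucleus (circles), MTR4-null cytoplasm and WT cytoplasm (squares). Each marker is 1 deposited group value, so there are no error bars. Ncbp1 in the MTR4-null nucleus stands at 15.1 FPKM against 5.16 FPKM in the WT nucleus, and Thoc5 in the MTR4-null cytoplasm at 3.41 FPKM against 16.5 FPKM in the WT cytoplasm.

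In the nucleus, 4 of the 10 transcripts (Ncbp1, Srrt, Phax and Nxf1) passed 2-fold on the higher side in MTR4-null, as did 23.9% of all genes, and 0 of 10 passed it on the lower side, as did 12.3% of all genes. Ncbp2, Zc3h18, Thoc1, Thoc2 and Nxt1 had differences between -0.16 and 0.17, and Thoc5 stood just short of 2-fold lower. In the cytoplasm, Ncbp1 was the 1 transcript past 2-fold on the higher side, against 15% of all genes, and Thoc5 the 1 on the lower side, against 21.4%. The median difference of the 10 was 0.13 in the nucleus (0.21 over all genes) and -0.37 in the cytoplasm (-0.26 over all genes). Both changed sign with scaling: common-gene centring gave -0.07 in nuclei and 0.15 in cytoplasms, and rescaling to equal sums without small RNA genes gave -0.04 and 0.21. Small RNA genes made up 39.0% of the summed FPKM of the MTR4-null cytoplasm against 4.09% of that of the WT cytoplasm, and their part in these differences was not tested beyond that rescaling. The nuclear count of 4 also depended on scaling: with common-gene centring, centring on all genes kept, or rescaling to equal sums without small RNA genes, Ncbp1 alone passed 2-fold on the higher side and Thoc5 passed it on the lower side. Under these settings 18.7% to 20.2% of all genes were higher in the MTR4-null nucleus and 14.6% to 16.7% lower.

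The promoters of Ncbp1, Srrt and Nxf1, higher in the MTR4-null nucleus, and of Thoc5, the lowest relative to WT, are shown because the differences between members turn on these genes. The RefSeq windows (build GRCm38.p6, 250 bases before to 50 after the first listed start) matched 7 of the 10 genes, without Ncbp2, Phax and Thoc1. The letters are 5′ to 3′ on the gene's own strand. Capitals mark matches on either strand to the TATA box letters (TATAAA), the CCAAT box, the GC box (GGGCGG), the ETS core (CCGGAA), the YY1 motif (AAGATGGCG), the E-box (CACGTG) or the NRF1 palindrome, and no base lies in more than 1 match. The windows are chr4:46138261-46138560 on the plus strand for Ncbp1, chr5:137307625-137307924 on the minus strand for Srrt, chr19:8756853-8757152 on the plus strand for Nxf1 and chr11:4895093-4895392 on the plus strand for Thoc5.
Ncbp1: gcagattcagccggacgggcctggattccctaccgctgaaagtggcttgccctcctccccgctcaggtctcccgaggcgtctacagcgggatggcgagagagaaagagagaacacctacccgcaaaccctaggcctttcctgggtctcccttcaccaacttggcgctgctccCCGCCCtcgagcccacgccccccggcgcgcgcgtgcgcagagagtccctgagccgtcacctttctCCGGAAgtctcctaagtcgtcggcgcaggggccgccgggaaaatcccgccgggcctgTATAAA
Srrt: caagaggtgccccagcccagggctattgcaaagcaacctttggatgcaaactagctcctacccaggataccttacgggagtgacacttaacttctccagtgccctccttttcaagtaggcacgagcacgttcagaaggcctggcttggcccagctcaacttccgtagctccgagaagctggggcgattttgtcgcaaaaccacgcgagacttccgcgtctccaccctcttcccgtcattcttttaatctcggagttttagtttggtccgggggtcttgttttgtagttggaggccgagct
Nxf1: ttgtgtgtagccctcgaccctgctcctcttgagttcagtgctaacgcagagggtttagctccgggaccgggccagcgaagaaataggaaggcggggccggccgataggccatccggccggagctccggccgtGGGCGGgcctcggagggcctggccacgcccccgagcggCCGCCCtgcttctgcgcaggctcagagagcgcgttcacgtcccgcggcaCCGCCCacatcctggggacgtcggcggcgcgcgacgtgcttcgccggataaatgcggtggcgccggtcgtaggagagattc
Thoc5: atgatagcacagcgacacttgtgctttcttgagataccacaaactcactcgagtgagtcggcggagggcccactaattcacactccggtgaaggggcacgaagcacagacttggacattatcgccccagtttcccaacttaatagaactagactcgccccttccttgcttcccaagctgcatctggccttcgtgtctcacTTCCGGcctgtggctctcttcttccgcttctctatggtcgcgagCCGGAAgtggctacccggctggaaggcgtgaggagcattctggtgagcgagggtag

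These windows have little in common beyond being rich in CpG. They hold 28 CpG in Ncbp1, 15 in Srrt, 38 in Nxf1 and 17 in Thoc5, against a median of 7 over the first promoter of 27025 genes. CCGGAA, the core letters of ETS factor sites, occurs once in Ncbp1 and 2 times in Thoc5, the 2 genes that lie farthest apart in the data, and in 15.2% of all promoters. GGGCGG, the letters of a GC box, occurs 3 times in Nxf1 and once in Ncbp1, and in 35.9% of all promoters. TATAAA ends the Ncbp1 window, downstream of the listed start, and occurs in 14.2% of all promoters. The Srrt window holds none of the letters searched. The other 3 windows are not printed. That of Zc3h18 holds GGGCGG and CCGGAA 2 times each. That of Thoc2 has 2 GGGCGG and 1 AAGATGGCG, which is found in 1.49% of all promoters, and that of Nxt1 has 1 GGGCGG, 1 CCGGAA and 1 CCAAT, which is found in 37.9%. CCGGAA is thus in 4 of the 7 windows and GGGCGG in 5 of 7.

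The subunits of the cap-binding complex differed from each other. Ncbp1, the large docking subunit, was at 15.1 FPKM in the MTR4-null nucleus against 5.16 FPKM in the WT nucleus, and at 7.26 FPKM in the MTR4-null cytoplasm against 2.70 FPKM in the WT cytoplasm. It was thus higher in MTR4-null in both compartments, by 1.38 and 1.16 on the log2 scale, or 2.92-fold and 2.69-fold without the pseudocount. Those differences exceeded the ones of 84.5% of all genes in the nucleus and 87.6% in the cytoplasm. Of all genes, 9.59% passed 2-fold on the higher side in both compartments. The 2-fold difference of Ncbp1 was present in both compartments under all 6 settings, the deposited values and 5 alternatives of pseudocount, filter and scaling. It was 1.16 to 1.53 in the nucleus and 1.16 to 1.68 in the cytoplasm. Removing the filter leaves the value of a single transcript as it is. In every count of settings given here, that setting therefore repeats the deposited value.

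Ncbp2, the small subunit that grips the cap itself, was at 30.8 FPKM in the MTR4-null nucleus against 34.4 FPKM in the WT nucleus, and at 22.2 FPKM in the MTR4-null cytoplasm against 28.9 FPKM in the WT cytoplasm. Its differences of -0.16 and -0.37 were small, and the second changed sign with scaling, up to 0.21. Ncbp1 was the lowest of the 10 transcripts in both WT columns, while in MTR4-null it ranked seventh in the nucleus and eighth in the cytoplasm. A ratio of 2 transcripts within a column does not depend on how columns are scaled. Ncbp1 stood at 0.490 of Ncbp2 in the MTR4-null nucleus against 0.150 in the WT nucleus, and at 0.327 in the MTR4-null cytoplasm against 0.0935 in the WT cytoplasm, a ratio 3.27-fold and 3.50-fold higher in MTR4-null.

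Reads of Ncbp1 may not all be its own. Xpa, a DNA repair gene on the opposite strand, overlaps it over 17057 bases in the GENCODE M21 annotation, though only 77 of these bases are exonic in both genes. Xpa was at 12.02 FPKM in the MTR4-null nucleus against 2.06 FPKM in the WT nucleus, and at 13.3 FPKM in the MTR4-null cytoplasm against 4.53 FPKM in the WT cytoplasm, which is higher in MTR4-null in both compartments as Ncbp1 is. Tstd2, also on the opposite strand, shares 82 exonic bases with Ncbp1. It was at 4.40 FPKM in the MTR4-null nucleus against 3.60 FPKM in the WT nucleus, and at 2.71 FPKM against 2.57 FPKM in the cytoplasms. The sources used here do not give whether the counting used strand. Reads from the shared exonic bases, and unspliced reads of the wider overlap, therefore cannot be told apart. Ncbp2 shares 131 exonic bases with Senp5 on the opposite strand, which was at 13.1 FPKM in the MTR4-null nucleus against 9.95 FPKM in the WT nucleus. The part of Xpa and Tstd2 reads in the Ncbp1 values, or of Senp5 reads in those of Ncbp2, was not tested.

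**Figure D2:**
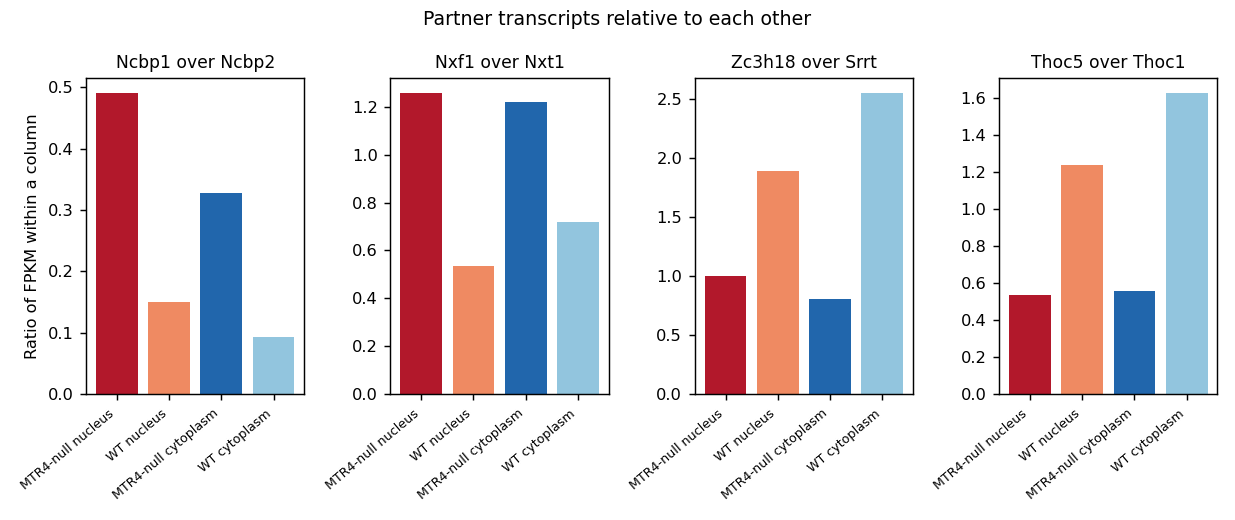
Ratios of the authors' FPKM between partner transcripts within each column (bars from 0, no error bars as each column is 1 group value). Ncbp1 over Ncbp2 and Nxf1 over Nxt1 are higher in both MTR4-null columns (0.490 and 1.25 in the MTR4-null nucleus against 0.150 and 0.533 in the WT nucleus), while Zc3h18 over Srrt and Thoc5 over Thoc1 are lower (1.002 and 0.537 against 1.89 and 1.24).

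The adaptors on the cap differed among themselves. Srrt, which encodes ARS2, was at 49.2 FPKM in the MTR4-null nucleus against 23.02 FPKM in the WT nucleus, and at 31.0 FPKM in the MTR4-null cytoplasm against 17.97 FPKM in the WT cytoplasm. It was higher in MTR4-null in both compartments, by 1.06 and 0.76, and stayed so under every setting, at 0.84 to 1.09 in the nucleus and 0.76 to 1.33 in the cytoplasm. Phax was at 33.9 FPKM in the MTR4-null nucleus against 15.5 FPKM in the WT nucleus, but at 24.2 FPKM in the MTR4-null cytoplasm against 21.3 FPKM in the WT cytoplasm. Its log2 differences were 1.08 and 0.18, so the higher level of the snRNA export adaptor lay mostly in the nuclear samples as deposited. With rescaling to equal sums the cytoplasmic difference of Phax was 0.75.

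Zc3h18, which ties the cap to the MTR4-containing NEXT complex, did not follow Srrt. It was at 49.3 FPKM in the MTR4-null nucleus against 43.5 FPKM in the WT nucleus, and at 25.2 FPKM in the MTR4-null cytoplasm against 45.8 FPKM in the WT cytoplasm. The nuclear difference of 0.17 changed sign with scaling, down to -0.04, and the cytoplasmic one of -0.84 lay between -0.86 and -0.26 over the settings. Zc3h18 thus stood at 1.002 of Srrt in the MTR4-null nucleus against 1.89 in the WT nucleus, and at 0.812 in the MTR4-null cytoplasm against 2.55 in the WT cytoplasm. Phax overlaps Aldh7a1 on the opposite strand, with 300 bases exonic in both. Aldh7a1 was lower in MTR4-null, at 28.7 FPKM against 59.5 FPKM in the nuclei and at 14.0 FPKM against 57.1 FPKM in the cytoplasms. The part of Aldh7a1 reads in the Phax values was not tested.

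Among the THO subunits, Thoc1 and Thoc2 were within 2-fold in both compartments and Thoc5 was lower in MTR4-null. Thoc2, the scaffold of the complex, was at 14.5 FPKM in the MTR4-null nucleus against 15.5 FPKM in the WT nucleus, and at 10.95 FPKM in the MTR4-null cytoplasm against 15.9 FPKM in the WT cytoplasm. Thoc1 was at 9.76 FPKM in the MTR4-null nucleus against 9.16 FPKM in the WT nucleus, and at 6.13 FPKM in the MTR4-null cytoplasm against 10.2 FPKM in the WT cytoplasm. Their nuclear differences of -0.08 and 0.08 were below the shift of all genes, the second changing sign with scaling (to -0.14), and their cytoplasmic ones were -0.50 and -0.65, with Thoc2 changing sign (to 0.06). Thoc1 shares 2169 exonic bases with Usp14 on the opposite strand, which was at 10.6 FPKM in the MTR4-null nucleus against 11.4 FPKM in the WT nucleus and at 5.59 FPKM in the MTR4-null cytoplasm against 15.0 FPKM in the WT cytoplasm, so the values of Thoc1 are uncertain.

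Thoc5, a subunit through which THO has been linked to export of particular mRNAs, was at 5.24 FPKM in the MTR4-null nucleus against 11.4 FPKM in the WT nucleus, and at 3.41 FPKM in the MTR4-null cytoplasm against 16.5 FPKM in the WT cytoplasm. It stood at 46.1% of WT in the nucleus and 20.7% of WT in the cytoplasm. The log2 differences were -0.99 and -1.99, and only 12.5% and 1.997% of all genes had a lower one. The cytoplasmic difference was past 2-fold under all 6 settings (-2.24 to -1.47) and the nuclear one under 4 of 6 (-1.21 to -0.99). Relative to Thoc1, Thoc5 was at 0.537 in the MTR4-null nucleus against 1.24 in the WT nucleus, and at 0.557 in the MTR4-null cytoplasm against 1.63 in the WT cytoplasm. Relative to Thoc2 it was at 0.361 against 0.736 in the nuclei and at 0.312 against 1.04 in the cytoplasms, the MTR4-null value first in each pair.

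The subunits of the export receptor also differed from each other, by less than those of the cap-binding complex. Nxf1, the large subunit that crosses the pore, was at 80.6 FPKM in the MTR4-null nucleus against 36.6 FPKM in the WT nucleus, and at 59.8 FPKM in the MTR4-null cytoplasm against 46.4 FPKM in the WT cytoplasm. It was the highest of the 10 transcripts in both MTR4-null columns, and its log2 differences were 1.12 and 0.36 (0.95 in the cytoplasm with rescaling to equal sums). Nxt1, its small partner, was at 64.3 FPKM in the MTR4-null nucleus against 68.6 FPKM in the WT nucleus, and at 49.2 FPKM in the MTR4-null cytoplasm against 64.4 FPKM in the WT cytoplasm. Its differences were -0.09 and -0.38, the second changing sign with scaling (to 0.20). Nxf1 stood at 1.25 of Nxt1 in the MTR4-null nucleus against 0.533 in the WT nucleus, and at 1.22 in the MTR4-null cytoplasm against 0.720 in the WT cytoplasm, a ratio 2.35-fold and 1.69-fold higher in MTR4-null. Nxf1 is known for an alternative mRNA that keeps an intron, and the single value per gene does not part its isoforms.

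**Figure D3:**
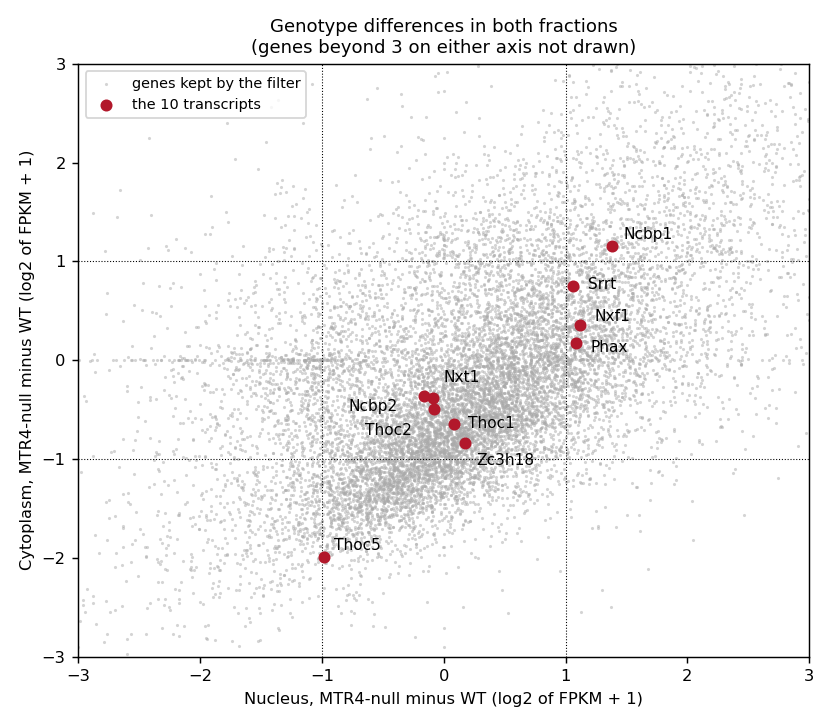
Genotype difference in the nucleus (x axis) and in the cytoplasm (y axis), MTR4-null minus WT on log2(FPKM + 1), for the 10 transcripts (red) and the 14270 genes kept (grey, those beyond 3 on either axis not drawn); dotted lines mark 2-fold. Ncbp1 lies past 2-fold on both axes at 1.38 and 1.16, Srrt, Phax and Nxf1 lie past it in the nucleus, and Thoc5 lies at -0.99 and -1.99.

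Differences in genotype also followed base composition, so the transcripts were set against genes of like GC content. By the longest coding transcript in GENCODE M21, Ncbp1 (48.5% GC), Phax (50.9%) and Nxf1 (51.2%) lie in the middle of 5 equal groups into which 11876 coding genes were ranked on GC, whose median difference was 0.16 in the nucleus and -0.40 in the cytoplasm. Srrt (55.7%), Zc3h18 (55.7%), Nxt1 (53.2%) and Thoc5 (52.0%) lie in the next group, at 0.35 and -0.26, and Thoc1 (40.2%) and Thoc2 (37.5%) in the group of lowest GC, at -0.08 and -0.50. Against the median of its own group, Ncbp1 was higher by 1.22 in the nucleus and 1.56 in the cytoplasm. Nxf1 was higher by 0.95 and 0.76. Srrt was higher by 0.71 and 1.02, Phax by 0.92 and 0.58, and Thoc5 differed by -1.34 and -1.73. Thoc2 differed from the median of its group by -0.01 in the nucleus and by less than that in the cytoplasm.

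Between compartments the 10 transcripts differed little. In WT, 0 of 10 passed 2-fold on the nuclear side (12.4% of all genes did) and 0 on the cytoplasmic side (4.71%). Ncbp1 was the most nuclear at 0.73, with 5.16 FPKM in the WT nucleus against 2.70 FPKM in the WT cytoplasm, and Thoc5 the most cytoplasmic at -0.50, with 11.4 FPKM in the WT nucleus against 16.5 FPKM in the WT cytoplasm. Phax (-0.44) and Nxf1 (-0.34) were also lower in the WT nucleus. In MTR4-null, 0 of 10 were 2-fold apart either way, where 17% of all genes were higher in the nucleus and 1.84% lower, and the 10 differences lay between 0.38 and 0.96 with a median of 0.48, near the median of 0.52 over all genes. Of all genes past 2-fold here, 90.3% were higher in the nucleus as deposited and 38.7% with common-gene centring. That centring put the median of the 10 at -0.11, with Ncbp1 at 0.36 and Zc3h18 at 0.35 highest. The 5 nuclear long RNAs kept by the filter (Malat1, Neat1, Kcnq1ot1, Meg3, Airn) all passed 2-fold on the nuclear side in WT, and 3 of 5 did in MTR4-null. In the MTR4-null cytoplasm 2 of these 5 passed 2-fold on the higher side against WT, where 15% of all genes did. Malat1 was at 69.6 FPKM there against 8.63 FPKM in the WT cytoplasm, and Kcnq1ot1 at 2.04 FPKM against 0.110 FPKM. In the MTR4-null nucleus 0 of 5 were higher and 3 lower, where 23.9% and 12.3% of all genes were. How much cytoplasm came with the nuclei, or nuclear RNA with the cytoplasms, was not tested.

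The nucleus to cytoplasm difference was larger in MTR4-null than in WT for all 10 transcripts, by a median of 0.57, which is also the median over all genes. It passed 2-fold for 2 of 10, Zc3h18 (1.01) and Thoc5 (1.002), where 27% of all genes were higher and 10.7% lower. With either centring, or rescaling to equal sums, 0 of 10 did, where 6.84% to 9.64% of all genes were higher and 18.2% to 22.2% lower. The share of all genes past 2-fold that was higher was 71.7% as deposited and 23.6% with common-gene centring. With that centring, Zc3h18 (0.29), Thoc5 (0.28), Phax (0.18), Nxf1 (0.04) and Thoc1 (0.01) remained above 0, and Ncbp2 (-0.52), Ncbp1 (-0.50), Nxt1 (-0.43), Srrt (-0.42) and Thoc2 (-0.31) turned negative. This comparison is built from the same 4 columns as the others and adds no independent value.

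**Figure D4:**
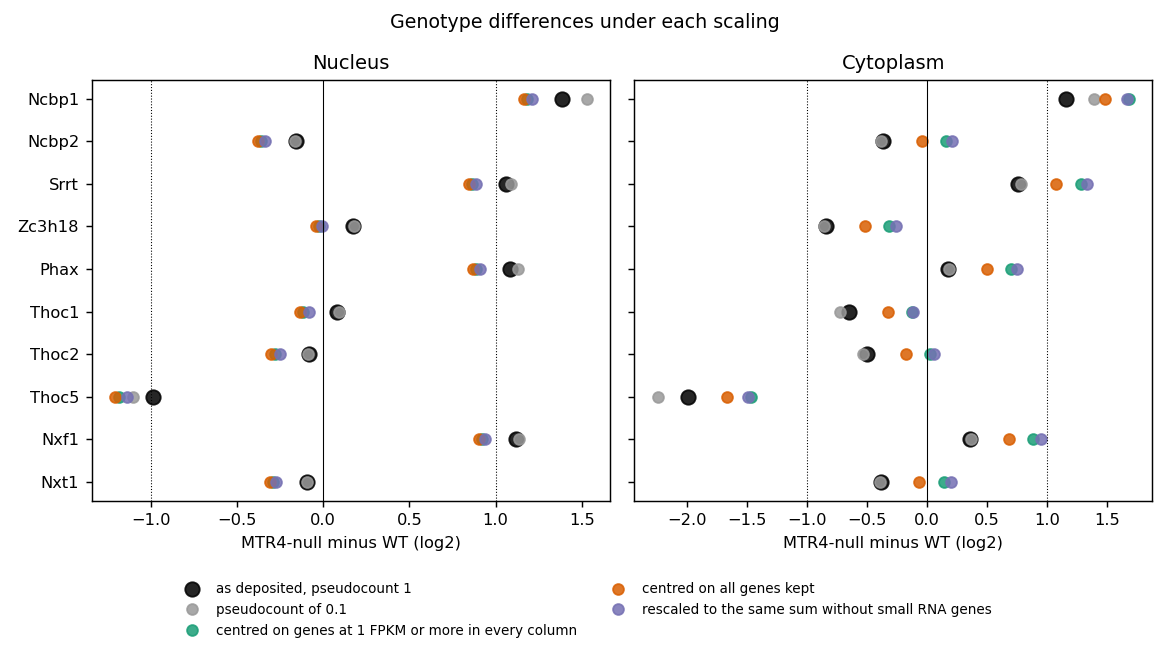
Genotype difference (MTR4-null minus WT, log2) of each transcript in the nucleus (left) and cytoplasm (right), 1 point per setting: as deposited with a pseudocount of 1, with a pseudocount of 0.1, with either centring, and with rescaling to equal sums without small RNA genes; dotted lines mark 2-fold. In the nucleus Srrt, Phax and Nxf1 cross below 2-fold when columns are centred (0.84, 0.87 and 0.90 at the lowest) while Ncbp1 stays at 1.16 or more.

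The rest of the cap and export pathway was read from lists of 45 other genes, of which 42 passed the filter; Nxf2, Nxf3 and Nxf7, paralogs of Nxf1, were at 0.171 FPKM or less in every column. In the nucleus, 8 of the 42 (19.0%) passed 2-fold on the higher side and 1 (2.38%) on the lower side, with a median of 0.25, where 23.9% and 12.3% of all genes did. In the cytoplasm 4 (9.52%) were higher and 11 (26.2%) lower, with a median of -0.22, where 15% and 21.4% of all genes were. Common-gene centring gave 4 (9.52%) higher and 2 (4.76%) lower in the nucleus, with a median of 0.05. Of all genes, 19.1% and 16.3% were then higher and lower. In the cytoplasm that centring gave 8 (19.0%) higher and 2 (4.76%) lower, with a median of 0.30. Of all genes, 24.7% and 6.94% were then higher and lower there.

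Among the genes that work directly with the 10 transcripts' products, other THO subunits stayed within 2-fold in both compartments: Thoc3 was at 36.3 FPKM in the MTR4-null nucleus against 32.4 FPKM in the WT nucleus, and Thoc6 at 24.5 FPKM against 21.7 FPKM. Of the 13 other TREX genes, 3 (23.1%) passed 2-fold on the higher side in the MTR4-null nucleus, near the 23.9% of all genes. After each rescaling 2 (15.4%) did, where 18.7% to 20.2% of all genes did. Alyref was at 106 FPKM in the MTR4-null nucleus against 51.2 FPKM in the WT nucleus, and Poldip3 at 48.2 FPKM against 19.8 FPKM. Fyttd1, which encodes the adaptor UIF, was at 9.42 FPKM against 3.32 FPKM. Other TREX adaptor genes of the list stayed within 2-fold in the nucleus: Zc3h11a (0.93), Alyref2 (0.58), the gene listed as 2500003M10Rik (0.20) and Erh (0.02). Poldip3 (1.24) and Fyttd1 (1.27) passed 2-fold under all 6 settings, and Alyref (1.03) under 3 of 6, none of them a rescaling. Sarnp, another TREX component, was lower, at 8.54 FPKM in the MTR4-null nucleus against 19.9 FPKM in the WT nucleus and at 3.28 FPKM in the MTR4-null cytoplasm against 10.4 FPKM in the WT cytoplasm. Zc3h11a was at 26.9 FPKM in the MTR4-null cytoplasm against 12.9 FPKM in the WT cytoplasm. Erh was at 41.5 FPKM there against 119 FPKM (-1.50, past 2-fold under 4 of 6 settings). Of the 13 genes, 1 (7.69%) was higher and 2 (15.4%) lower in the cytoplasm, where 15% and 21.4% of all genes were. Common-gene centring gave 2 higher and 0 lower, where 24.7% and 6.94% of all genes were.

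Of 6 partners of the cap, 2 (33.3%) passed 2-fold on the higher side in the MTR4-null nucleus and 0 on the lower side. Of all genes, 23.9% and 12.3% did. In the MTR4-null cytoplasm 1 (16.7%) was higher and 2 (33.3%) lower, against 15% and 21.4% of all genes. These counts depended on scaling. Common-gene centring gave 2 higher and 0 lower in the cytoplasm, where 24.7% and 6.94% of all genes were. In the nucleus it gave 2 higher and 1 lower, where 19.1% and 16.3% of all genes were. Zc3h4, whose product restricts unproductive transcription together with WDR82, was at 76.1 FPKM in the MTR4-null nucleus against 25.7 FPKM in the WT nucleus (log2 difference 1.53, past 2-fold under all 6 settings), while Wdr82 itself was at 72.9 FPKM against 69.6 FPKM. The gene listed as 1200014J11Rik, now named Ncbp3, which encodes a further cap-binding protein, was at 29.6 FPKM in the MTR4-null cytoplasm against 10.7 FPKM in the WT cytoplasm. Ctif was at 11.1 FPKM in the MTR4-null nucleus against 4.04 FPKM in the WT nucleus (1.26), while its difference in the cytoplasm was -0.08. Eif4e, the cytoplasmic cap-binding protein of translation, was at 25.7 FPKM in the MTR4-null cytoplasm against 65.95 FPKM in the WT cytoplasm. Casp8ap2, which encodes the histone processing factor FLASH, was at 12.6 FPKM against 33.8 FPKM. Eif4e (-1.32) and Casp8ap2 (-1.35) each passed 2-fold in the cytoplasm under 4 of 6 settings.

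Of the 9 pore and receptor paralog genes kept, 1 (11.1%) was higher and 3 (33.3%) lower than 2-fold in the MTR4-null cytoplasm. Of 5 genes of snRNA export, 1 (20%) was higher and 2 (40%) lower. Of all genes, 15% and 21.4% were. Common-gene centring gave 1 higher and 1 lower for the pore list, and 2 higher and 1 lower for snRNA export. Of all genes, 24.7% and 6.94% were then higher and lower. Nupl2, a nucleoporin gene, was at 5.84 FPKM in the MTR4-null cytoplasm against 1.56 FPKM in the WT cytoplasm (1.42), and Tgs1, whose product hypermethylates snRNA caps, at 4.73 FPKM against 1.47 FPKM (1.21), both past 2-fold under all 6 settings. Nup214, a nucleoporin of the cytoplasmic face, was at 43.9 FPKM in the MTR4-null cytoplasm against 151 FPKM in the WT cytoplasm, and Ddx19a, a helicase that strips export factors there, at 52.9 FPKM against 135 FPKM. Xpo1, which encodes CRM1, the exporter used by PHAX, was at 12.2 FPKM against 26.5 FPKM, and Snupn, which encodes the snRNA import adaptor, at 12.7 FPKM against 43.7 FPKM. Nup214 (-1.76) and Snupn (-1.71) passed 2-fold under all 6 settings, Ddx19a (-1.33) under 4, and Xpo1 (-1.06) and Nup98 (-1.02) under 3. Of the 6 TREX-2 genes, 1 (16.7%) was higher and 0 lower in the MTR4-null nucleus, where 23.9% and 12.3% of all genes were. In the cytoplasm 0 were higher and 2 (33.3%) lower, and 0 were lower with common-gene centring. Pcid2 was at 55.5 FPKM in the MTR4-null nucleus against 23.9 FPKM in the WT nucleus. Mcm3ap was at 26.1 FPKM in the MTR4-null cytoplasm against 76.7 FPKM in the WT cytoplasm. Both passed 2-fold under 4 of 6 settings, and Cetn3 (-1.19 in the cytoplasm) under 3.

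Of 5 genes of MTR4 and its adaptors, 1 passed 2-fold on the higher side in the MTR4-null nucleus and 1, Mtr4 itself, on the lower side. Of all genes, 23.9% and 12.3% did. Zfc3h1, a partner of MTR4 in the PAXT pathway, was at 22.7 FPKM in the MTR4-null nucleus against 10.3 FPKM in the WT nucleus. Its difference of 1.07 passed 2-fold under 3 of 6 settings and was 0.85 at the lowest. Zcchc8, which encodes a NEXT subunit, was at 80.5 FPKM against 103 FPKM, and Rbm7 (0.10) and Pabpn1 (0.09) differed little in the nucleus. In the cytoplasm 0 of the 5 were higher and 1, Mtr4 itself, lower, where 15% and 21.4% of all genes were. The others differed there by -0.88 (Zcchc8), -0.91 (Rbm7), -0.13 (Pabpn1) and 0.32 (Zfc3h1). Over the settings Zcchc8 lay between -0.89 and -0.29 there, and Rbm7 between -0.92 and -0.32.

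**Figure D5:**
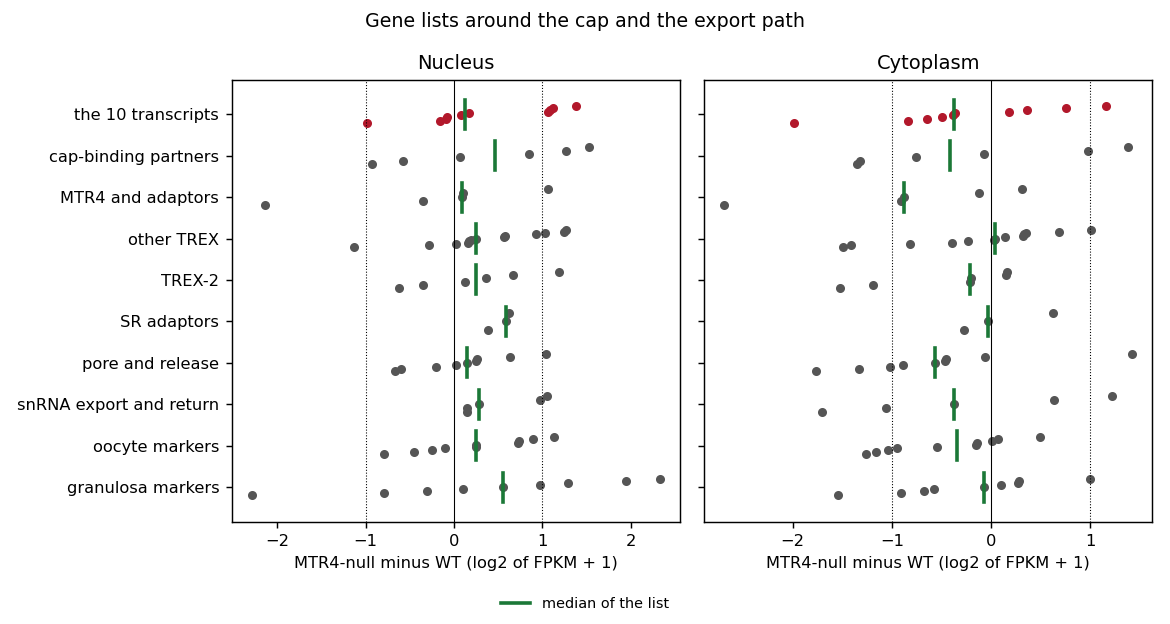
Genotype difference (MTR4-null minus WT on log2(FPKM + 1)) of each gene of the lists kept by the filter, in the nucleus (left) and cytoplasm (right); green bars are list medians and dotted lines mark 2-fold. The 10 transcripts (red) have medians of 0.13 (nucleus) and -0.37 (cytoplasm), and the other lists kept by the filter are drawn beside them.

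Profiles of the 10 transcripts were compared over the 4 columns. By the Euclidean distance between profiles of log2(FPKM + 1), each with its own mean taken off, the closest pairs were Thoc2 and Nxt1 (0.102), Ncbp2 and Nxt1 (0.126) and Phax and Nxf1 (0.135), and the farthest were Ncbp1 and Thoc5 (2.91). Among 9027 named genes at 5 FPKM or more in at least 1 column, the genes nearest to Ncbp1 were Wscd2 (0.152), Taf1c (0.162) and Cebpb (0.193). Wscd2, for example, was at 17.8 FPKM in the MTR4-null nucleus against 6.27 FPKM in the WT nucleus, and at 7.54 FPKM in the MTR4-null cytoplasm against 3.14 FPKM in the WT cytoplasm. Nearest to Srrt were Capn12 (0.0427), Prickle2 (0.0726) and Gltscr2 (0.0733), nearest to Nxf1 were Cdk4 (0.0424), Zfp295 (0.0457) and Acpp (0.0540), and nearest to the mean of the 10 were Lrwd1 (0.0286), Add3 (0.0378) and Atf6b (0.0390). With 4 columns, such likeness describes these values and no more.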

How the data were processed

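The authors deposited FPKM for 23235 genes in 4 columns, 1 per genotype and compartment. The submitters' processing notes name TopHat2 2.1.1, Cufflinks 2.2.1 and build mm9, with no settings. The sources used here do not give how the 9 libraries were combined: 30 of the 40 member values have repeating decimals, the pattern of means of 3 values, while the labels list 3 libraries for the WT nucleus alone. Depth is unknown. A row without a gene name, the column sum, was left out. The columns headed Mtr4 were taken as MTR4-null. Differences were computed with pandas 2.3.3 on log2(FPKM + 1) for the 14270 genes reaching 1 FPKM in any column, and the counting was tested on simulated data. With 1 column per group no test was possible. Members and lists were chosen with earlier results of these data known. Named were all 10 members, list genes and the 3 genes of nearest profile, the last leaving out small RNA genes and predicted gene models. Most of the list genes named were at least 2-fold apart in a genotype comparison. Thoc3, Thoc6, Alyref2, 2500003M10Rik, Wdr82, Zcchc8, Rbm7, Pabpn1, the SR protein genes, Nxf2, Nxf3, Nxf7 and the overlapping genes were named after their values were seen. Promoters are RefSeq's (GRCm38.p6). GC content and overlaps come from GENCODE M21 (GRCm38), a different build from that of the table.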

Additional observations from a re-analysis of the deposited data

How the results depend on the processing

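Each count and median of the 10 transcripts was recomputed with a pseudocount of 0.1, with columns centred on the genes that all 4 columns list at 1 FPKM or above (common-gene centring), centred on all genes kept, rescaled to the same sum without small RNA genes, and with no filter. Of 75 such values, 17 moved by over 1.5 times. The medians, none past 2-fold, changed sign: the nuclear one was -0.07, -0.09 and -0.04 under the 3 rescalings in that order, and the cytoplasmic one 0.15, -0.05 and 0.21. The median nucleus to cytoplasm difference in WT, -0.05 as deposited, was 0.07, -0.06 and 0.08. With each of the 3 rescalings, the nuclear count went to 1 higher and 1 lower in MTR4-null, the cytoplasmic count to 2 higher, and the count of larger nucleus to cytoplasm differences in MTR4-null to 0. Of all genes, 18.7% to 20.2% were then higher and 14.6% to 16.7% lower in the nucleus, and 20.7% to 24.7% higher in the cytoplasm. Larger nucleus to cytoplasm differences were then found for 6.84% to 9.64% of all genes. With a pseudocount of 0.1, 1 transcript passed 2-fold on the lower side in MTR4-null nuclei, and 1 on the nuclear side within MTR4-null. Of all genes, 16.3% and 25.6% did so with that pseudocount. The median nucleus to cytoplasm difference in MTR4-null went to -0.11, -0.07 and -0.08. The median difference between genotypes of that value went to -0.15, 0.03 and -0.16. These are shifts of whole columns, by construction of the settings. Of 250 values of single transcripts, 39 moved by over 1.5 times and 0 of those past 2-fold reversed. Both totals include the values with no filter, which could not move because all 10 transcripts pass the filter.

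Leaving out replicates was not run, as the columns hold no single libraries. No paired analysis was possible because the columns carry no replicate numbers.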

Other observations

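The 3 SR protein genes whose products also act as adaptors for NXF1 were within 2-fold in both compartments as deposited, with Srsf7 passing 2-fold in the cytoplasm under 2 of 6 settings (up to 1.16). Srsf1 was at 29.1 FPKM in the MTR4-null nucleus against 22.2 FPKM in the WT nucleus, Srsf3 at 33.2 FPKM against 21.8 FPKM, and Srsf7 at 16.1 FPKM against 10.1 FPKM. In the cytoplasm Srsf7 was at 8.57 FPKM in MTR4-null against 5.20 FPKM in WT, while Srsf1 was at 16.4 FPKM in MTR4-null against 16.8 FPKM in WT. Ran, the GTPase that drives CRM1 transport, was at 50.7 FPKM in the MTR4-null nucleus against 24.01 FPKM in the WT nucleus. Its difference of 1.05 passed 2-fold under 3 of 6 settings and was 0.83 at the lowest.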
